A study of Homo sapiens with 6 samples.

Results

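Transcripts of 40 genes that fold secretory proteins in the endoplasmic reticulum (ER) or report on that folding were followed in HaCaT cells given repeated mild heat. The genes were picked by symbol from the 15379 rows of the count table, and all 40 had a row. They fall into 11 chaperones and cochaperones, 10 enzymes of disulfide formation and their partners, 14 components of ER-associated degradation, and a last group of 5 that holds the stress sensors and the transcription factor XBP1. A filter on low counts kept 39 of them, and DERL3 was left out.

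Proteins bound for the cell surface or for secretion fold inside the ER, where the Hsp70 chaperone HSPA5 (BiP) binds unfolded chains and oxidoreductases form their disulfide bonds. Chains that fail to fold are drawn back into the cytosol and degraded. When unfolded chains accumulate, the sensors ERN1 (IRE1), EIF2AK3 (PERK) and ATF6 start the unfolded protein response, which raises transcription of ER chaperones and degradation genes. Keratinocytes depend on this machinery for the cadherins, integrins and laminins that hold the epidermis together. The factors ATF6 and XBP1 act through the ER stress response element (ERSE) and its shorter form ERSE-II, whereas cytosolic heat shock genes are driven by heat shock factor through a separate element.

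The cells were HaCaT, a spontaneously immortalised line of human keratinocytes. In 3 libraries the cells had been held at 41C for 1 h per day on 3 days, and in the other 3 they had been held at 37C on the same schedule. The sources used here do not say whether the libraries came from separate cultures, so p-values measure the spread between these libraries, which may be technical, and they do not give the time between the last exposure and RNA extraction. Poly(A) RNA was sequenced to 20856144, 20708801 and 20139202 counts in the 41C libraries, against 19662115, 19659112 and 19745664 counts in the 37C libraries. All 8 listed keratinocyte markers were present, with a summed level of 2866 to 3029 FPKM (counts per kilobase of gene per 1e6 counts of the library) at 41C, against 2486 to 2737 FPKM at 37C. Of these 8, 5 rose in the edgeR test, a count that became 0 when replicate 2 of either temperature was dropped, 2 and 3 when 41C replicate 1 or 3 was, 3 under upper-quartile scaling and 0 on log2(FPKM + 1). Melanocyte markers summed to 1.28 to 1.88 FPKM at 41C, against 1.39 to 1.60 FPKM at 37C, fibroblast markers to 0.508 to 0.542 FPKM at 41C, against 0.583 to 0.705 FPKM at 37C, and endothelial and blood markers to 4.25 to 5.22 FPKM at 41C, against 4.81 to 6.93 FPKM at 37C. The part of the keratinocyte markers' difference in the values that follow was not tested.

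Promoter windows of these genes were searched for exact matches to the letters read by ATF6 and XBP1 near a listed start. A site that differs in any fixed letter was not counted, so a member without a match may still hold a variant site. RefSeq promoters (GRCh38.p14, from 250 bases before to 50 after each listed start) were matched for 36 of the 40 members. None was matched for DERL1, DERL3, PDIA3 and UFD1. A listed start was not always the outer end of the gene. For example, the windows of NPLOC4 (chr17:81566553-81566852 and chr17:81577384-81577683) and SIL1 (chr5:139198319-139198618) lay inside genes that begin at 81648465 and 139293557 on the minus strand. The ERSE was searched on both strands as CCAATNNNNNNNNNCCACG and was found in 8 of the 36 members (22.2%). It was found in 0.0916% of the 27305 genes with a promoter and in 0.163% of the 9812 of them that were tested. The members were picked by name as genes of this pathway, so their share describes that choice and is not a result on heat. A gene with several listed starts was counted if any of its windows held the element. The ERSE lay in only some windows of CANX, PDIA6 and XBP1, as did the UPRE core searched below in TXNDC5. Which starts these cells use was not tested. The matches are printed in the direction of each gene's transcription, with the fixed letters of the element, or of its reverse complement, in capitals.
HSPA5 ERSE: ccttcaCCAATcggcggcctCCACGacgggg
HSP90B1 ERSE, upstream copy: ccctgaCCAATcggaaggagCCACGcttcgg
HSP90B1 ERSE, downstream copy: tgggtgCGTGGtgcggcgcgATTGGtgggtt
CALR ERSE: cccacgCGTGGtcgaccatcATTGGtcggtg
CANX ERSE: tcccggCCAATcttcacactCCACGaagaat
PDIA6 ERSE: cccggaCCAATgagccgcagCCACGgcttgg
ERO1B ERSE: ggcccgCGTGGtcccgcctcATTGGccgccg
CRELD2 ERSE: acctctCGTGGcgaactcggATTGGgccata
XBP1 ERSE: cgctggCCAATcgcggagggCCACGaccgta

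The windows lie at chr9:125241385-125241415 (minus strand) for HSPA5, chr12:103930210-103930240 and chr12:103930315-103930345 (plus strand) for HSP90B1 and chr19:12938378-12938408 (plus strand) for CALR. Those of CANX, PDIA6 and ERO1B lie at chr5:179698772-179698802 (plus strand), chr2:10812847-10812877 (minus strand) and chr1:236282177-236282207 (minus strand). Those of CRELD2 and XBP1 lie at chr22:49918548-49918578 (plus strand) and chr22:28800597-28800627 (minus strand). HSP90B1 was the member with 2 exact copies, in opposite orientations.

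ERSE-II was searched on both strands as ATTGGNCCACG and was found in 3 of the 36 members (8.33%). It was found in 0.0696% of all genes with a promoter and in 0.143% of the tested ones. It is shown in the same way, and HYOU1 held 2 copies.
HERPUD1 ERSE-II: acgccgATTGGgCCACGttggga
HYOU1 ERSE-II, upstream copy: ccgtgaCGTGGtCCAATcccagg
HYOU1 ERSE-II, downstream copy: ctgggaCGTGGtCCAATgagtac
SDF2L1 ERSE-II: cggaagCGTGGaCCAATcaaaac

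These windows lie at chr16:56932019-56932041 (plus strand) for HERPUD1, chr11:119057374-119057396 and chr11:119057268-119057290 (minus strand) for HYOU1, and chr22:21642108-21642130 (plus strand) for SDF2L1. A core of the XBP1-binding UPRE, TGACGTGG, occurred in 5 of the 36 members (13.9%), namely DNAJC10, HYOU1, TXNDC11, TXNDC5 and VCP. It occurred in 0.927% of all genes with a promoter and in 1.18% of the tested ones. In HYOU1 it overlapped the upstream ERSE-II. A heat shock element, GAANNTTCNNGAA, was found in 0 of the 36 members, against 0.608% of all genes with a promoter and 0.448% of the tested ones. The 0 says only that these letters are absent from these windows.

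No member passed the threshold between 41C and 37C. With edgeR's quasi-likelihood test, 0 of the 39 tested members had an adjusted p under 0.05 in either direction, against 131 of 12056 genes (1.09%). Of all genes, 0.821% passed as higher and 0.265% as lower, a split of 99 to 32 genes that was 57 to 53 with upper-quartile scaling. The same 0 was given by limma-voom, whereas DESeq2 called 1 member, HSPA5, the most abundant ER chaperone by counts. DESeq2 gave an adjusted p for 22 members and none for the other 17, and it called 217 of the 12056 genes (1.8%). At an unadjusted p under 0.05 there were 4 members, OS9 among the higher and HSPA5, MANF and CALR among the lower, where 13.7% of all genes passed that level, 7.58% higher and 6.12% lower. The groups did not overlap for 8 members, 3 of them higher at 41C (P4HB, NPLOC4 and OS9) and 5 lower (HSPA5, MANF, DNAJB11, PDIA5 and EDEM1). Over all genes 20% did not overlap, 11.2% higher and 8.84% lower, so the members' count lay near the background. The members' split of 3 higher and 5 lower was 1 and 5 with upper-quartile scaling, 4 and 4 with a correction for gene length, and 2 and 7 on log2(FPKM + 1).

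The size of any difference was bounded closely for most members. The log2 changes (41C over 37C) ran from -0.44 to 0.41 with a median of -0.02, beside a median of 0.0023 over all genes tested, and 24 members were negative and 15 positive. The 95% interval of the fold lay within 1.5-fold either way for 37 of the 39 members, against 86.3% of all genes, and within 1.25-fold for 33, against 65.4% of all genes. ERO1B and EDEM2, both near the bottom of the levels, were the 2 members with wider intervals than 1.5-fold.

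**Figure D1:**
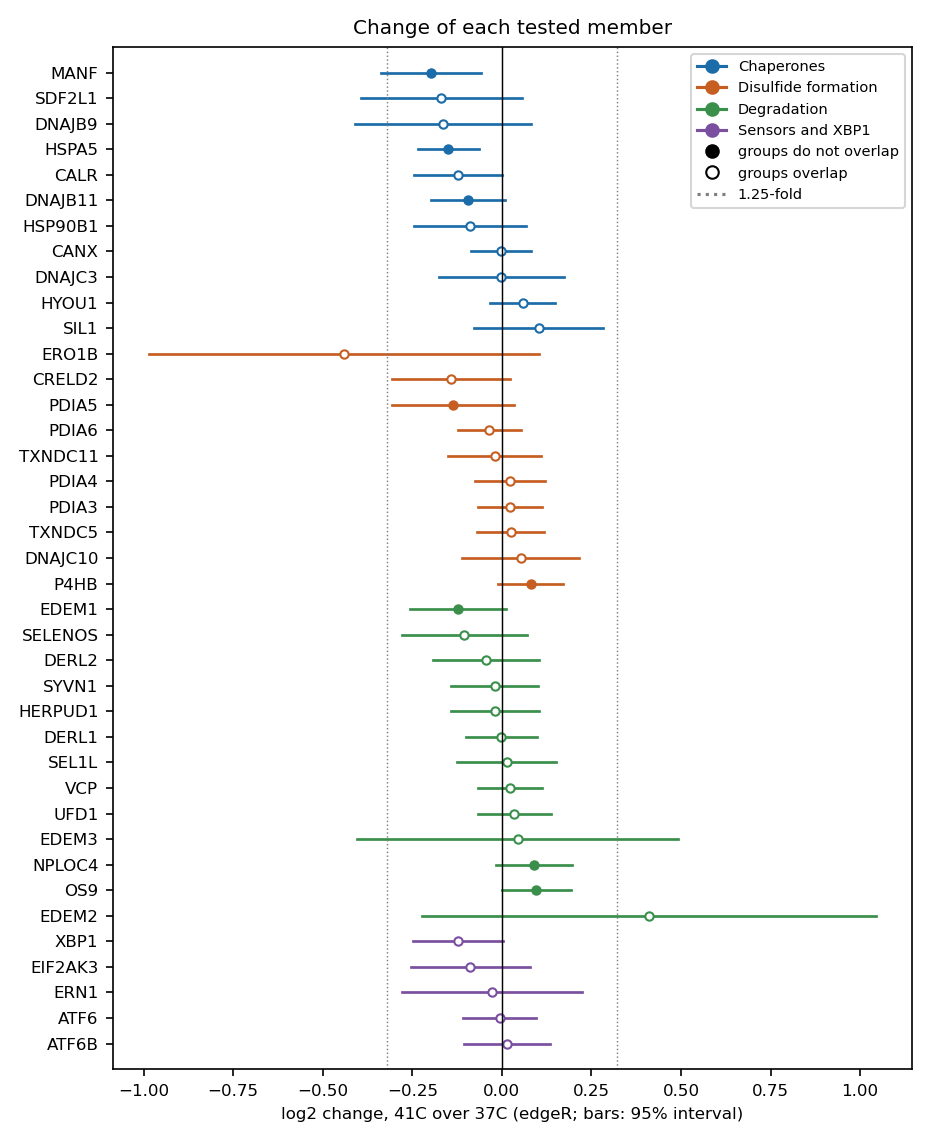
The log2 change of each of the 39 tested members (41C over 37C, edgeR) is drawn with its 95% interval, coloured by functional subgroup, and filled where the groups did not overlap. Of the 11 chaperones, 9 lie left of 0, DNAJC3 and CANX among them by less than their SE. The degradation components are spread on both sides, and ERO1B and EDEM2 have the widest intervals.

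The chaperones were mostly negative. Their 11 log2 changes had a median of -0.09, with 9 negative and 2 positive, 3 lower without overlap and 0 past the threshold (smallest edgeR adjusted p = 0.0912). Of all 12056 genes, 5923 were negative and 8.84% lower without overlap. The negative values of DNAJC3 (-0.0015 ± 0.08) and CANX (-0.0024 ± 0.04) were smaller than their SE. Corrected for each library's trend on gene length, the chaperone median was -0.07, beside -0.06 for the sensors and XBP1 and 0.01 for all genes. HSPA5 lies at chr9:125234853-125241330 (GRCh38, minus strand). It had 983, 1010.5 and 1028 CPM (counts per 1e6 counts) in the 41C libraries, against 1101, 1133 and 1118 CPM in the 37C libraries. All 3 heated libraries were below all 3 at 37C. The means were 1007 ± 22.6 CPM at 41C and 1117 ± 16.2 CPM at 37C (SD, n = 3 each), a fold of 0.902 with a 95% interval of 0.85 to 0.957. The log2 change of -0.15 ± 0.04 (SE) had an edgeR adjusted p of 0.0912 and a DESeq2 adjusted p of 0.0243. Without 37C replicate 3 the edgeR adjusted p was 0.0180 at the same size, -0.15. In that fit 805 of 12154 genes (6.62%) passed, against 1.09% with all 6 libraries. Across the 17 alternatives the change of HSPA5 kept its sign and lay between -0.17 and -0.13, so its call depended on the setting more than its size did.

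HSP90B1 (GRP94), the ER member of the Hsp90 family, had 676, 666 and 669.8 CPM at 41C, against 773, 744 and 623 CPM at 37C. The heated libraries were nearly equal and lay inside the range of the 37C libraries, of which replicate 3 was the lowest. Its log2 change was -0.09 ± 0.07 (edgeR adjusted p = 0.638). Without 37C replicate 3 it was -0.18 ± 0.04 (edgeR adjusted p = 0.00453), in a fit where 6.62% of all genes passed. That library had a trend on gene length, with a Spearman coefficient of -0.43 between length and its deviation. The coefficient was -0.04 and 0.13 in the other 37C libraries and 0.05 to 0.23 at 41C. In 37C replicate 3 the median deviation was 0.07 for the shortest genes (2.471 kb or less). It was -0.07 for the longest (6.324 kb or more). HSP90B1, at 2.782 kb, is nearer in length to the shortest genes. In that library it deviated by -0.15, below the medians of both the shortest and the longest genes. The part of the length trend in this low value was not tested. With each library's length trend removed, the log2 change of HSP90B1 was -0.07 (edgeR adjusted p = 0.746).

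MANF, an ER-resident protein that binds HSPA5 and is secreted under stress, had 47.3, 47.9 and 48.8 CPM at 41C, against 51.2, 54.1 and 59.8 CPM at 37C. The groups did not overlap, and the spread was wider at 37C. The log2 change was -0.20 ± 0.07 (edgeR adjusted p = 0.182), and -0.10 with the length correction (edgeR adjusted p = 0.514). CALR (calreticulin), the lectin chaperone of glycoproteins, had 663, 718 and 789.5 CPM at 41C, against 758, 814 and 793 CPM at 37C. Its highest heated library lay inside the 37C range, and the log2 change was -0.12 ± 0.06 (edgeR adjusted p = 0.3605), or -0.06 without 41C replicate 1 and -0.08 with the length correction. Its membrane-bound relative CANX (calnexin) had 859.8, 844 and 836 CPM at 41C, against 856, 859 and 829 CPM at 37C. The CANX fold was 0.998 with a 95% interval of 0.941 to 1.06, the groups overlapping fully.

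The cofactors that set the ATPase cycle of HSPA5 were split in sign. DNAJB11, a J-domain cochaperone, had 123, 129 and 130.4 CPM at 41C, against 138, 133 and 138 CPM at 37C, with no overlap (log2 change -0.09 ± 0.05, edgeR adjusted p = 0.404, or -0.04 with the length correction). DNAJB9, a J-domain protein that also restrains ERN1, had 9.74, 9.66 and 8.51 CPM at 41C, against 10.8, 11.2 and 9.27 CPM at 37C. The groups of DNAJB9 overlapped through 37C replicate 3, and its log2 change was -0.16 ± 0.12 (edgeR adjusted p = 0.581). DNAJC3 stood at 65.5 ± 2.25 CPM at 41C and 65.6 ± 8.29 CPM at 37C (SD, n = 3 each). SDF2L1, a partner of DNAJB11, had 13.4, 16.2 and 13.7 CPM at 41C, against 14.5, 17.7 and 16.5 CPM at 37C, which overlapped (log2 change -0.17 ± 0.11, edgeR adjusted p = 0.512, or -0.07 with the length correction).

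Both nucleotide exchange factors of HSPA5 had positive values. HYOU1 (GRP170) had 236, 240.1 and 237 CPM at 41C, against 226, 223 and 237 CPM at 37C, with a fold of 1.04 and a 95% interval of 0.978 to 1.11. SIL1 had 26.6, 31.9 and 30.9 CPM at 41C, against 25.6, 29.3 and 28.4 CPM at 37C, with a fold of 1.07 and an interval of 0.948 to 1.22. The groups overlapped for both, and the edgeR adjusted p was 0.597 for HYOU1 and 0.649 for SIL1.

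**Figure D2:**
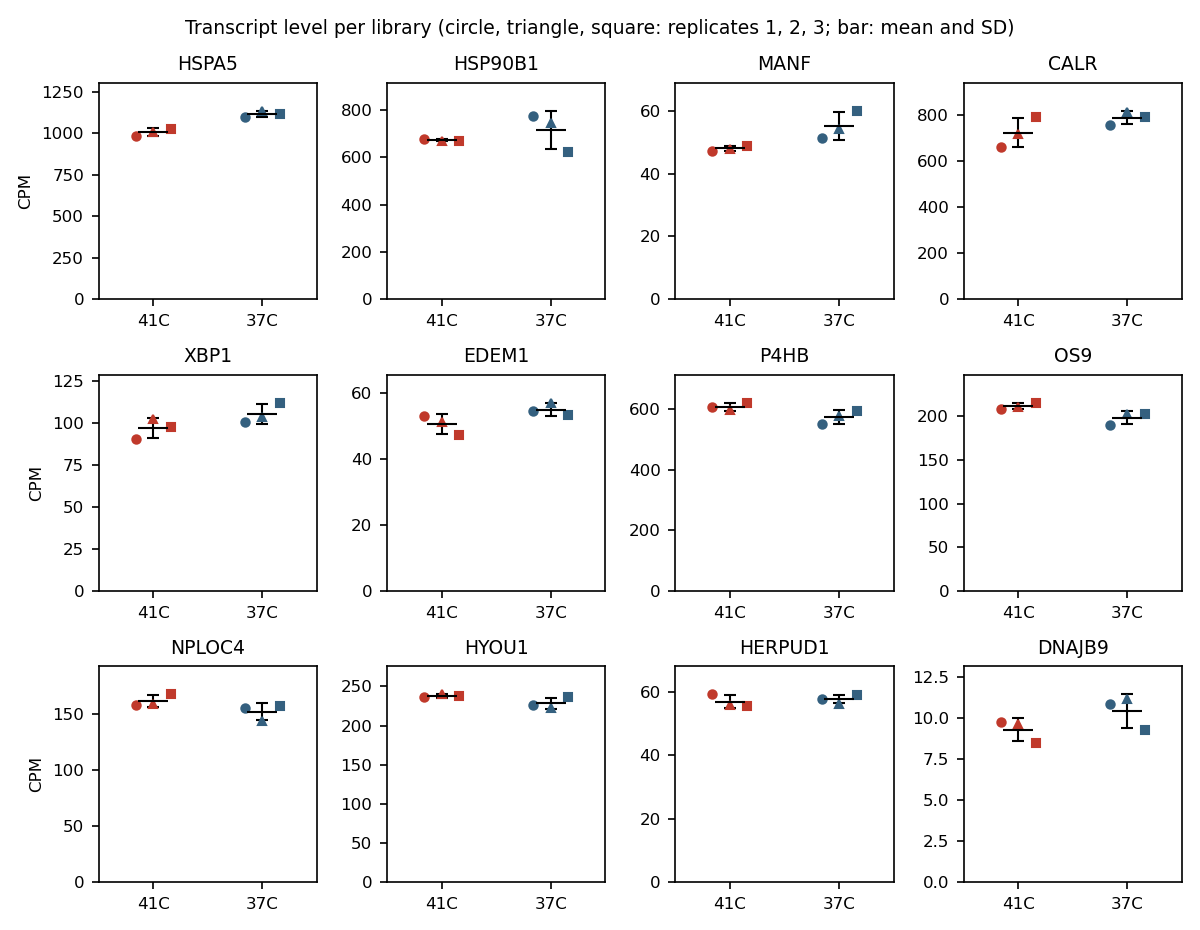
Each panel gives the TMM-scaled CPM of 1 member in the 3 libraries at 41C (left, red) and the 3 at 37C (right, blue), with the mean and SD as a bar and replicates 1, 2 and 3 as circle, triangle and square, on axes that start at 0. HSPA5, MANF and EDEM1 lie lower at 41C without overlap, P4HB, OS9 and NPLOC4 lie higher without overlap, and 37C replicate 3 is the lowest library of HSP90B1.

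The enzymes of disulfide formation were balanced around 0. Their 10 log2 changes had a median of 0.00043, with 5 positive and 5 negative, 1 higher and 1 lower without overlap and 0 past the threshold (smallest edgeR adjusted p = 0.425). P4HB, the protein disulfide isomerase that is also a subunit of prolyl 4-hydroxylase, had 606, 597 and 621 CPM at 41C, against 550.4, 579 and 595 CPM at 37C. Its heated libraries were all above those at 37C, with a log2 change of 0.08 ± 0.04 (edgeR adjusted p = 0.425). PDIA5 had 20.5, 22.8 and 23.5 CPM at 41C, against 24.6, 24.8 and 23.9 CPM at 37C, lower without overlap (log2 change -0.14 ± 0.08, edgeR adjusted p = 0.481). PDIA4 (ERp72), a multidomain isomerase, had 222, 226 and 233 CPM at 41C, against 217, 235 and 218 CPM at 37C, and its fold of 1.01 had an interval of 0.949 to 1.09. The thiol isomerases PDIA3, PDIA6 and TXNDC5 had log2 changes of 0.02, -0.03 and 0.02, each ± 0.04.

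CRELD2, an ER stress gene of this group, had 28.3, 31.8 and 29.8 CPM at 41C, against 30.3, 35.0 and 33.8 CPM at 37C. The groups overlapped and the log2 change was -0.14 ± 0.08 (edgeR adjusted p = 0.440). ERO1B, an oxidase that recharges the isomerases, had 34, 38 and 23 counts at 41C, against 38, 52 and 35 counts at 37C. It had the lowest log2 change of all members, -0.44 ± 0.26, with a fold interval of 0.506 to 1.07 and overlapping groups (edgeR adjusted p = 0.471). At that depth the interval of ERO1B was wide and included no change. DNAJC10, the ER reductase, had 109 ± 3.98 CPM at 41C and 105 ± 12.4 CPM at 37C (SD, n = 3 each), and TXNDC11 had 50.2 ± 1.67 CPM at 41C and 50.9 ± 2.27 CPM at 37C.

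Components of ER-associated degradation also lay on both sides of 0. The 13 tested of 14 had a median log2 change of 0.01, with 7 positive and 6 negative, 2 higher and 1 lower without overlap and 0 past the threshold (smallest edgeR adjusted p = 0.357). OS9, the lectin that carries misfolded glycoproteins to the ubiquitin ligase, had 209, 211 and 215 CPM at 41C, against 189, 202 and 202 CPM at 37C. Its heated libraries were all higher, with a fold of 1.07, an interval of 1.00 to 1.14 and an edgeR adjusted p of 0.357. NPLOC4, which with UFD1 and the ATPase VCP pulls chains out of the membrane, had 158, 159 and 168 CPM at 41C, against 155, 143 and 157 CPM at 37C. It was higher without overlap (log2 change 0.09 ± 0.05, edgeR adjusted p = 0.454). Its partners were flatter, with 325 ± 1.18 CPM at 41C and 320.1 ± 10.5 CPM at 37C for VCP and 111 ± 1.64 CPM at 41C and 109 ± 1.70 CPM at 37C for UFD1 (SD, n = 3 each).

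Of the mannosidase-like EDEM proteins, which mark glycoproteins for degradation, EDEM1 had 53.0, 51.1 and 47.2 CPM at 41C, against 54.4, 57.0 and 53.4 CPM at 37C. It was lower without overlap, by a log2 change of -0.12 ± 0.06 (edgeR adjusted p = 0.412). EDEM3 had 40.6, 37.9 and 37.7 CPM at 41C, against 46.4, 39.01 and 27.2 CPM at 37C, so the heated libraries sat inside a wide 37C range set by replicates 1 and 3 (fold interval 0.756 to 1.41). EDEM2 had 23, 36 and 22 counts at 41C, against 21, 16 and 22 counts at 37C, and the highest log2 change of all members, 0.41 ± 0.30 (edgeR adjusted p = 0.592). The table also holds a readthrough row, MMP24-AS1-EDEM2, with 16, 32 and 32 counts at 41C, against 39, 31 and 29 counts at 37C and a log2 change of -0.35 ± 0.29. Reads of that row and of EDEM2 could have been split between them, and the EDEM2 value is uncertain.

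SEL1L, the adaptor of the ubiquitin ligase SYVN1 (HRD1), had 93.1, 91.6 and 87.2 CPM at 41C, against 97.0, 92.0 and 80.3 CPM at 37C, overlapping (fold 1.01, interval 0.917 to 1.11). SYVN1 had 71.5 ± 2.47 CPM at 41C and 72.5 ± 3.42 CPM at 37C (SD, n = 3 each). HERPUD1, a stress-inducible scaffold of the same complex, had 59.2, 55.9 and 55.5 CPM at 41C, against 57.7, 56.3 and 59.0 CPM at 37C. The groups of HERPUD1 were interleaved, and its fold of 0.986 had an interval of 0.906 to 1.07. The membrane proteins DERL1, DERL2 and SELENOS had log2 changes of -0.0021, -0.05 and -0.10, with edgeR adjusted p-values of 0.993, 0.838 and 0.630. DERL3 had 1, 0 and 0 counts at 41C and 0 counts in all 3 libraries at 37C, where 0 of 59066891 counts allows a level of up to 0.0508 CPM (counting error only), and no fold is given.

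The sensors and XBP1 had small values. Their 5 log2 changes had a median of -0.03, with 4 negative, 1 positive, none without overlap and 0 past the threshold (smallest edgeR adjusted p = 0.374, 0 at an unadjusted p under 0.05). ERN1 (IRE1), the kinase and nuclease that splices XBP1 RNA, had 8.16, 8.40 and 9.42 CPM at 41C, against 9.59, 8.55 and 8.31 CPM at 37C, overlapping (fold 0.982, interval 0.825 to 1.17). EIF2AK3 (PERK), the kinase that slows translation, had 32.1, 32.2 and 30.2 CPM at 41C, against 35.8, 34.6 and 30.03 CPM at 37C, overlapping through replicate 3 (fold 0.941, interval 0.838 to 1.06). ATF6, a membrane-bound transcription factor released by cleavage, had 107, 104 and 105 CPM at 41C, against 106, 108 and 104 CPM at 37C. Its fold of 0.995 had an interval of 0.927 to 1.07, and that of its relative ATF6B was close, with a log2 change of 0.01 ± 0.06.

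XBP1, the factor that ERN1 activates, had 90.3, 102 and 97.9 CPM at 41C, against 101, 104 and 112 CPM at 37C. The second heated library lay inside the 37C range. Its log2 change was -0.12 ± 0.06 (fold 0.918, 95% interval 0.841 to 1.00), with an unadjusted p of 0.0537 and an edgeR adjusted p of 0.374. It was -0.08 with the length correction, where that of EIF2AK3 was -0.09. Gene counts do not separate spliced from unspliced XBP1 and do not read sensor cleavage or phosphorylation, so activation of the sensors was not measured.

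Levels per length ordered the subgroups. Over all 6 libraries the median level was 56.7 FPKM for the chaperones, 40.7 for disulfide formation, 16.02 for degradation and 13.4 for the sensors and XBP1, against 8.05 FPKM for all genes tested. The highest level was that of CALR, with 378 ± 30.6 FPKM at 41C and 417 ± 13.2 FPKM at 37C (SD, n = 3 each). HSPA5 followed with 255 ± 4.15 FPKM at 41C and 287 ± 3.36 FPKM at 37C. The next 2, HSP90B1 with 239.5 ± 2.95 FPKM at 41C and 258 ± 30.4 FPKM at 37C and P4HB with 247 ± 3.85 FPKM at 41C and 237 ± 7.82 FPKM at 37C, did not differ beyond their spread. CANX (163 FPKM over all libraries) and PDIA3 (132 FPKM) came next, and PDIA6, PDIA4 and DNAJB11 were nearly equal at 83.5, 80.6 and 80.5 FPKM. At the low end were ERN1 (0.802 FPKM), EDEM2 (0.613 FPKM) and ERO1B (0.236 FPKM). XBP1, at 55.7 FPKM, was far above its activator ERN1.

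**Figure D3:**
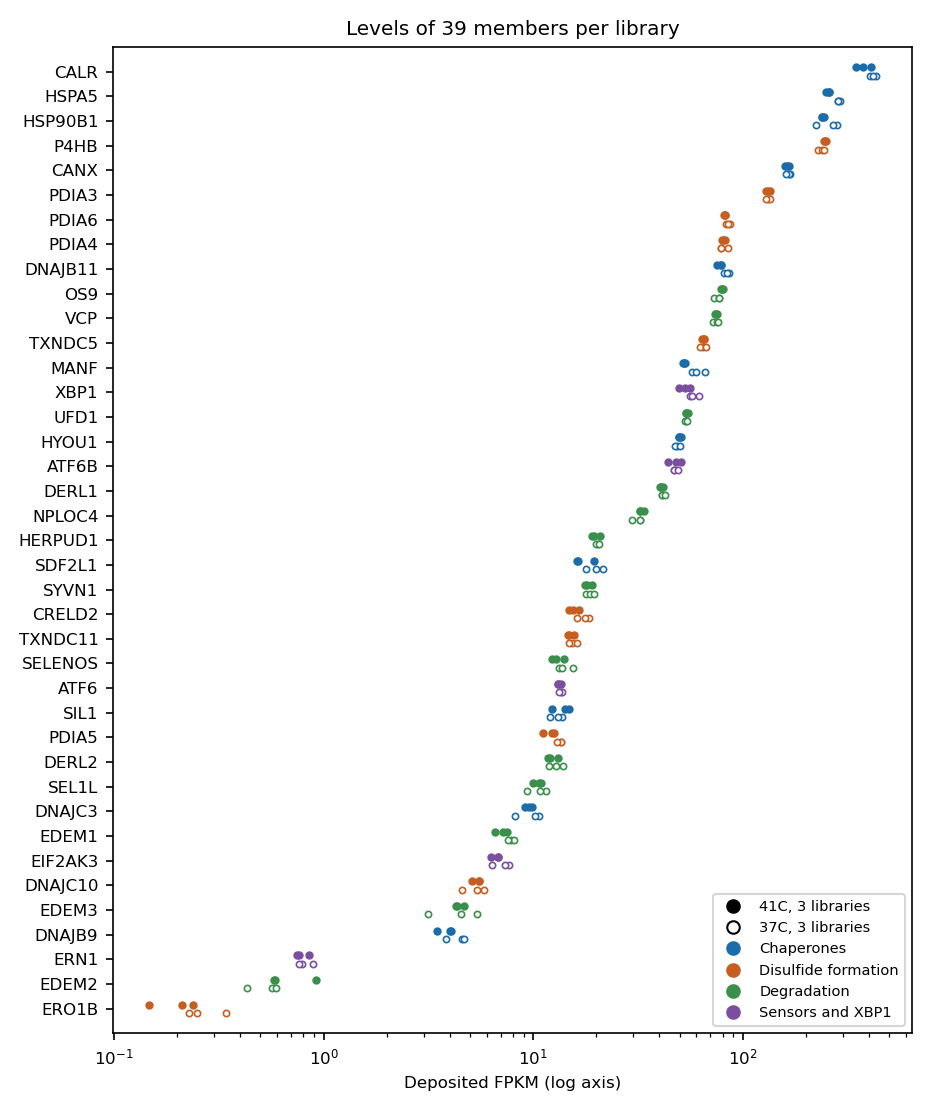
Deposited FPKM of the 39 tested members is shown on a log axis, 1 row per gene in order of the mean, with filled points for the 3 libraries at 41C above open points for the 3 at 37C. The order is led by CALR, HSPA5, HSP90B1 and P4HB and ends with ERN1, EDEM2 and ERO1B, and the groups lie close together in nearly every row.

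A few abundant members carried most of the counts. HSPA5, CANX, CALR, HSP90B1, P4HB and PDIA3 together held 58.5% of all counts of the 40 members, and HSPA5 alone 14.01%. All members together took 0.737%, 0.746% and 0.749% of the counts of the 41C libraries, against 0.773%, 0.781% and 0.759% in the 37C libraries, without overlap. With HSPA5 left out the shares were 0.639%, 0.645% and 0.648% at 41C, against 0.661%, 0.667% and 0.647% at 37C, which overlapped. Without HSPA5, CALR and HSP90B1 they were 0.505%, 0.507% and 0.504% at 41C, against 0.506%, 0.511% and 0.506% at 37C. The ranges of the groups overlapped again with these 3 chaperones left out.

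Members with an ERSE or ERSE-II had a lower median log2 change than those without. The 11 with either element (HSPA5, HSP90B1, HYOU1, SDF2L1, CALR, CANX, PDIA6, ERO1B, CRELD2, HERPUD1 and XBP1) had a median log2 change of -0.12, with 10 negative and 1, HYOU1, positive. Over all genes 5923 of 12056 were negative. The values of CANX (-0.0024 ± 0.04), HERPUD1 (-0.02 ± 0.06) and PDIA6 (-0.03 ± 0.04) were smaller than their SE. HSPA5, HSP90B1, HYOU1, SDF2L1, CALR and CANX also belong to the chaperones described above, so the 2 medians share members. The 25 members with no exact match to either element in the windows searched, NPLOC4 and SIL1 among them, had a median of -0.0015. Of these, 13 were negative and 12 positive. Groups without overlap were 1 lower and 0 higher in the first set, and 4 lower and 3 higher in the second. In 16 alternatives that gave every one of these members a value, the first median ran from -0.16 to -0.07, and was -0.07 with the length correction. The second ran from -0.02 to 0.0061. The 19 other tested genes with either element in their promoter had 10 negative and 9 positive values, a median of -0.0070 and 0 past the threshold. The 5 members with the UPRE core had log2 changes of 0.05 (DNAJC10), 0.06 (HYOU1), -0.02 (TXNDC11), 0.02 (TXNDC5) and 0.02 (VCP). HYOU1 belongs to the first set above and the others to the second. These are descriptions of promoter letters and of changes that did not pass, with no test.

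**Figure D4:**
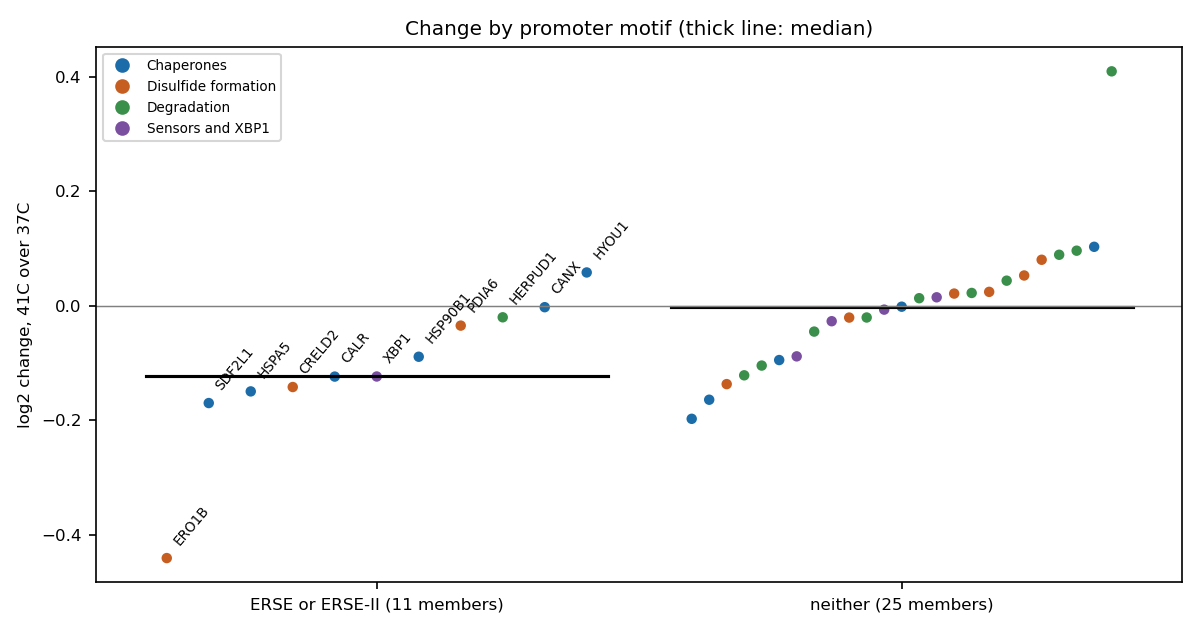
The log2 change (41C over 37C) of each member with an ERSE or ERSE-II in its promoter (left, 11 named members) and of each member with neither (right, 25 members) is plotted with colours for the functional subgroups and a thick line at the median. On the left 10 of 11 points lie below 0 around a median of -0.12. On the right 13 points lie below 0 and 12 above, from -0.20 to 0.41, with a median of -0.0015.

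Gene length ran beside these values. Over all genes, the 3014 longest (6.324 kb or more) had a median log2 change of 0.04 and the 3014 shortest (2.471 kb or less) one of -0.04. Among the members, the 13 shortest (0.825 to 2.444 kb) had a median of -0.12 with 9 negative, the 13 of middle length (2.626 to 4.167 kb) -0.02 with 8 negative, and the 13 longest (4.326 to 20.14 kb) -0.0015 with 7 negative. The part of length in the chaperone and promoter medians was not tested beyond the correction given with them.

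**Figure D5:**
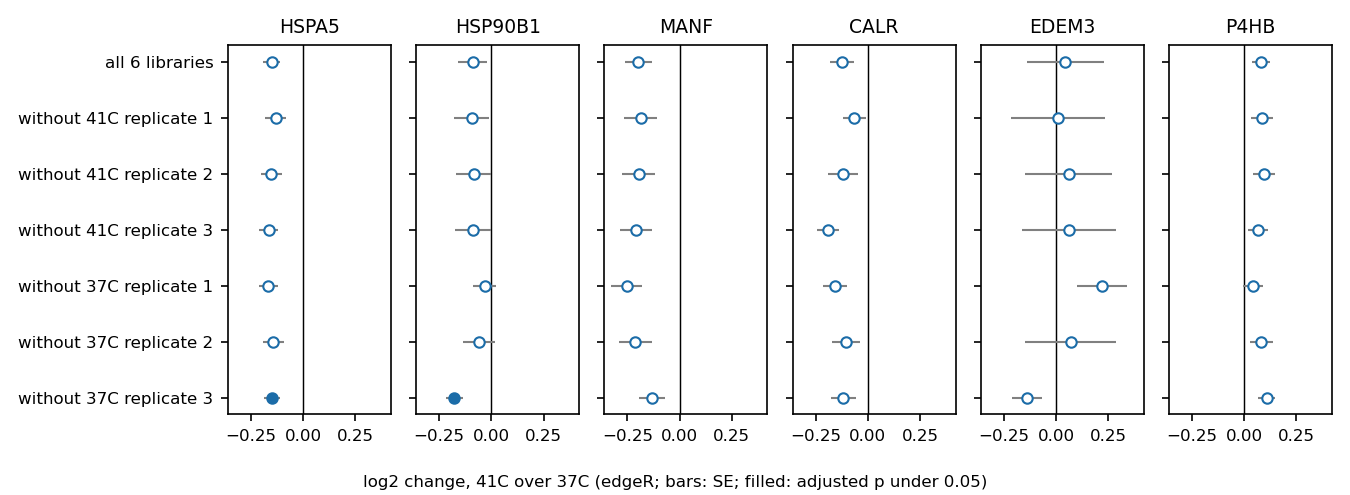
The log2 change (41C over 37C, edgeR) of 6 members is shown with its SE for all 6 libraries and without each library in turn, filled where the adjusted p was under 0.05. HSPA5 stays near -0.15 throughout and is filled only without 37C replicate 3, where 6.62% of all genes passed. HSP90B1 lies between -0.18 and -0.03, and EDEM3 changes sign without 37C replicate 3.

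Other genes of the same pathways gave the same picture of small values. Of 100 listed genes outside the 40 members, 98 had a row and 94 were tested, and 0 passed the threshold with edgeR, 11 having an unadjusted p under 0.05, 6 higher and 5 lower. Their median log2 change was -0.02, with 41 positive and 53 negative. Genes of ER import and signal peptide cleavage had the lowest median of these lists, -0.05 over 18, with 13 negative and 6 lower without overlap. Over all genes 5923 of 12056 were negative and 8.84% were lower without overlap. Their smallest p-values were those of the translocon subunits SEC61B (-0.16 ± 0.06, edgeR adjusted p = 0.233) and SEC61G (-0.17 ± 0.07, edgeR adjusted p = 0.291). The channel subunits of the same translocon were positive, SEC61A1 at 0.10 ± 0.04 (edgeR adjusted p = 0.310) and SEC61A2 at 0.38 ± 0.18, higher without overlap (edgeR adjusted p = 0.376). SEC61B and SEC61G are short (0.564 and 0.425 kb), whereas SEC61A1 and SEC61A2 are longer (3.568 and 3.232 kb). Over all genes, those of 2.471 kb or less had a median of -0.04. The part of gene length in the values of this list was not tested. Genes of N-glycan addition and trimming had a median of 0.03 over 15, led by the glucosidase subunit GANAB at 0.09 ± 0.04 (edgeR adjusted p = 0.330) and the mannosidase MAN1B1 at 0.10 ± 0.05 (edgeR adjusted p = 0.361).

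Other disulfide enzymes had a median of 0.01 over 14, among them TXNDC16 at 0.35 ± 0.11 (edgeR adjusted p = 0.153), and other ER chaperones one of -0.02 over 11. Other degradation genes had a median of 0.0051 over 18, with UBE2J1, a ubiquitin-conjugating enzyme of the ER membrane, at -0.16 ± 0.06 (edgeR adjusted p = 0.254) and BAG6, a cytosolic holdase, at 0.10 ± 0.04 (edgeR adjusted p = 0.294). Partners of the sensors had a median of -0.01 over 10, with WFS1 at 0.21 ± 0.12 and the ATF6 protease MBTPS1 at 0.08 ± 0.05 (edgeR adjusted p 0.445 and 0.509). Of 8 outputs of the PERK arm, whose median was -0.02, DDIT3 (CHOP), a factor induced by prolonged ER stress, stood at -0.26 ± 0.09 and was lower without overlap (edgeR adjusted p = 0.190). PPP1R15A (GADD34), which restores translation, stood at 0.10 ± 0.06, and ATF4, the factor upstream of both and named for that place, at -0.07 ± 0.05 (edgeR adjusted p 0.491 and 0.581).

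Heat shock genes outside the ER, 11 of them cytosolic or nuclear and 1, HSPE1, the mitochondrial cochaperonin, were listed for contrast. Their median log2 change was 0.14 over 12 tested, 11 were positive, and HSPE1 stood at -0.15 ± 0.09. HSPA1A (0.30 ± 0.05, edgeR adjusted p = 0.00498) and HSPA8 (0.21 ± 0.05, edgeR adjusted p = 0.0364) rose, and the reads of HSPA1A cannot be told apart with certainty from those of its near-identical copy HSPA1B. Dropping replicate 2 of either temperature left 0 of these calls, and dropping 41C replicate 1 or 3, or scaling by upper quartiles, left 1. On log2(FPKM + 1) limma gave 0. Dropping 37C replicate 1 gave 4 calls and dropping 37C replicate 3 gave 6. The difference between these genes and the ER lists was not tested.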

How the data were processed

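The authors deposited raw whole-number counts, 1 row for each gene symbol, and a table of FPKM values that follows from them. Every FPKM above 0 was the count scaled by a fixed gene length and by the library's total, within 0.01% for 100% of values, so FPKM is no second measurement and served for levels, lengths and alternatives. Per the labels' protocols, RNA came from a mirVana kit, with TruSeq Stranded mRNA preparation. The submitters' processing notes name Trimmomatic 0.36, HISAT2 and GRCh38.p13. No counter, annotation or strand setting is named in the sources used here. Overlapping antisense genes may therefore share reads.

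Counts of all genes were tested with edgeR 4.0.16 (R 4.3.3): filterByExpr, which left 12056 genes, TMM factors, and the robust quasi-likelihood test of 41C against 37C, two-sided, with Benjamini-Hochberg adjustment over all genes tested and a threshold of 0.05. CPM is TMM-scaled and given as mean ± SD of 3 libraries, log2 changes ± SE, and groups are called non-overlapping when all 3 libraries at 41C lie above or below all 3 at 37C. Intervals of 95% come from the fit. A single gene could not pass below 0.1 in an exact two-sided permutation test of 3 against 3. Groups come from the sample titles. The script was tested on simulated counts.

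Alternatives were DESeq2 1.42.0, limma 3.58.1 (voom on counts, and log2 of FPKM with a pseudocount of 1 or 0.1), DESeq2 and upper-quartile scaling factors, no filter, a CPM minimum of 1 in 3 libraries, a replicate block, a length correction (spline with 4 degrees of freedom per library), both together, and leaving out each library. The members, subgroups, lists, motifs and alternatives were chosen with earlier results of these data known. Values per library are given for members past the threshold in an alternative with all 6 libraries, for the 5 highest and 5 lowest log2 changes, and for 18 members chosen by name. Those of DNAJB11, PDIA5 and EDEM3 were added after their values were seen, as were the names ATF4, SEC61A1, SEC61A2 and HSPE1. Of each list, up to 2 members with the smallest p are named. Gene positions are from GENCODE 29 and promoters from RefSeq GRCh38.p14.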

Additional observations from a re-analysis of the deposited data

How the results depend on the processing

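The sources used here do not say whether the replicate numbers pair the libraries. Deviations of same-numbered libraries at 41C and 37C correlated at 0.11, -0.01 and 0.10. Replicates 1 and 3 at 41C correlated best with their own numbers, whereas 41C replicate 2 correlated best with 37C replicate 1 (0.07). These values do not settle the pairing. Genes past the threshold numbered 131, 217 with DESeq2, 284 with no filter, 438 with the replicate block, 341 with the block and the length correction, and 11 and 40 with limma on log2(FPKM + 1) and log2(FPKM + 0.1); without 1 library they ran from 5 (without 41C replicate 2) to 805 (without 37C replicate 3). With upper-quartile factors the split was 57 higher and 53 lower, against 99 and 32. Of the members, 0 passed, against 1 (HSPA5) with DESeq2, with the replicate block, and with the block and length correction (adjusted p = 0.0243, 0.00782 and 0.0129), and 0 to 2 without 1 library, HSPA5 and HSP90B1 passing without 37C replicate 3. DESeq2 gave no adjusted p for 17 members. Other pathway genes past the threshold were 0 to 7 without 1 library, 7 without 37C replicate 3. The 2 heat shock genes past the threshold were 7 with the replicate block and 8 with the block and length correction. Members without overlap were 8, 6 with upper-quartile factors, 9 on FPKM, and 8 to 17 without 1 library, where a smaller group overlaps less often by construction. The sensors and XBP1 had a median of -0.064 with the block and length correction, against -0.063 for the chaperones. The median of all members was -0.040 with upper-quartile factors and -0.038 with log2(FPKM + 0.1); without 1 library the degradation median ran from -0.010 to 0.022 and that of the sensors and XBP1 from -0.067 to -0.0054. No member reversed its sign where its change was at least its SE or passed. For the other moved values the cause was not tested. Depth limits ERO1B, EDEM2 and DERL3.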
